A study of Homo sapiens with 3 samples.

Results

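The nuclear genes of the mitochondrial respiratory chain and of ATP synthase were followed in HaCaT cells, an immortalized line of human epidermal keratinocytes. They were chosen by name, as the genes whose name in the array annotation begins with NDUFA, NDUFB, NDUFC, NDUFS, NDUFV, UQCR, COX4, COX5, COX6, COX7, COX8 or ATP5, together with SDHA, SDHB, SDHC and SDHD. This gave 85 of 23595 measured genes, read by 177 transcripts. The 3 single-colour arrays held cells given all-trans retinoic acid (ATRA, the active form of vitamin A) together with nicotinamide (NIC, an amide form of vitamin B3), cells given 1 µM ATRA alone, and control cells without either agent. Per the labels the incubation lasted 36 h. The labels name no nicotinamide dose, no array held cells given nicotinamide alone, and each group held 1 array. All 3 arrays are of the same cell line in serum-containing medium, and the number of cultures behind each array is not stated.

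Respiratory complexes I to IV sit in the inner mitochondrial membrane and pass electrons from NADH and succinate to oxygen. Complexes I, III and IV pump protons as they do so, and ATP synthase, often called complex V, uses the return of these protons to make ATP. In keratinocytes, as in most cells, most subunits are encoded in the nucleus and a few in mitochondrial DNA. The transcription factors NRF1, GABPA (an ETS family protein) and YY1 are known to bind promoters of many of the nuclear genes.

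Of the 85 genes, 38 belong to complex I (NADH dehydrogenase), 4 to complex II (succinate dehydrogenase), 7 to complex III (the cytochrome bc1 complex), 19 to complex IV (cytochrome c oxidase) and 16 to ATP synthase. The remaining gene, EMC8, carries the older name COX4NB and encodes a subunit of the endoplasmic reticulum membrane complex. It entered by its name alone. In all, 79 encode subunits. The other 6 do not: EMC8, the complex I assembly factor gene NDUFAF1, the supercomplex factor gene COX7A2L, the hypoxia-inducible COXFA4L2, the coupling factor gene DMAC2L, and ATP5MGL, a relative of the subunit g gene. NDUFA4, now COXFA4, encodes a complex IV subunit first assigned to complex I, and it was counted in complex IV. In 20 cases the name in the files is older than the RefSeq symbol used here, such as ATP5G1, ATP5G2 and ATP5G3 for ATP5MC1, ATP5MC2 and ATP5MC3.

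Promoter sequences were present for 69 of the 85 genes in a RefSeq table of assembly GRCh38.p14, each running from 250 bases before to 50 bases after the transcription start. Motifs were searched as letters on both strands. The NRF1 palindrome (GCGCA, any 1 base, then GCGC) was found in 15 promoters, or 21.7%, against 8.58% of 15843 promoters of protein-coding genes. The ETS core CCGGAAG was found in 20 promoters, or 29.0%, against 14.2%, and the YY1 motif AANATGGCG in 15, or 21.7%, against 4.81%. At least 1 of these motifs was present in 39 promoters, or 56.5%, against 24.2% of all promoters. A match describes these letters only. The promoters shown were picked with the differences known, because they show the motifs in different arrangements. All of their genes were higher on the ATRA+NIC array than on both other arrays. Only COX6A1 among them was higher with ATRA than in Control. Each promoter shown carries a motif, while those of NDUFA2 and NDUFB1, genes with large differences described further on, hold none of these motifs. Capitals mark the motif matches, and each line reads 5′ to 3′ on the strand of the gene.
NDUFB4: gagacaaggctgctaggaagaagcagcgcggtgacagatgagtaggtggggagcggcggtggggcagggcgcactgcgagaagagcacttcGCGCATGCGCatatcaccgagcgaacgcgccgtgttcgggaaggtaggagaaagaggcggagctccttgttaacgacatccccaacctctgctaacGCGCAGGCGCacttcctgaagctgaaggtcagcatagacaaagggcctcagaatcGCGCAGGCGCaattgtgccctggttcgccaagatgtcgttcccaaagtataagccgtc
NDUFA9: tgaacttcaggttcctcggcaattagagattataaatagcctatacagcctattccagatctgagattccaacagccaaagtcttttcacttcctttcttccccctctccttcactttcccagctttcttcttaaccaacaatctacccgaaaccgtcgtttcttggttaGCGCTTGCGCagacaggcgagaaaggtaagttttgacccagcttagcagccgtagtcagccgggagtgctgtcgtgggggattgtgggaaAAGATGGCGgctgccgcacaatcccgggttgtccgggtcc
ATP5ME: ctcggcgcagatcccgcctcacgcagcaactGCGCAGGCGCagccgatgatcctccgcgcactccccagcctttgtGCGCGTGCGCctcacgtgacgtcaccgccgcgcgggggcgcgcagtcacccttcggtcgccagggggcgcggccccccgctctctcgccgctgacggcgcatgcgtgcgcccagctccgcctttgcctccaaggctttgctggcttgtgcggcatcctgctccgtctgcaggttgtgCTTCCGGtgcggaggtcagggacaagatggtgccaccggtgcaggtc
UQCRQ: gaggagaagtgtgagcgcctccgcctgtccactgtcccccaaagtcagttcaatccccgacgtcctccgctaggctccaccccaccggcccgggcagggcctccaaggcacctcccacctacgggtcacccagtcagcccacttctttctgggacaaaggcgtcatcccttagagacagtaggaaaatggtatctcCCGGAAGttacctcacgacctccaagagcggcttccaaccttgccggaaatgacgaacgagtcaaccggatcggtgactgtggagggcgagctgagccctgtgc
COX6A1: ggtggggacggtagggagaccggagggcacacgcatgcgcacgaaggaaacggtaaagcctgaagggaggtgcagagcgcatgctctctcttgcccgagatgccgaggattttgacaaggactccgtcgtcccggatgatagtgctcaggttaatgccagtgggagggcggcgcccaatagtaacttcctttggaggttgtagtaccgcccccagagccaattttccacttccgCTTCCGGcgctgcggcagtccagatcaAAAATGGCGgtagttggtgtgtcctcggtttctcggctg

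The NDUFB4 promoter (GRCh38.p14 chr3:120596086-120596385, plus strand) holds the NRF1 palindrome at 159, 63 and 8 bases before the start. That of NDUFA9 (chr12:4648864-4649163, plus strand) holds it 80 bases before the start, on the opposite strand, with a YY1 motif 10 bases after the start. In ATP5ME (chr4:674227-674526, minus strand) the palindrome lies 219 and 174 bases before the start and an ETS core 3 bases after it. UQCRQ (chr5:132866392-132866691, plus strand) carries an ETS core 54 bases before the start and neither of the other motifs. COX6A1 (chr12:120437863-120438162, plus strand) has an ETS core 16 bases before and a YY1 motif 11 bases after the start. The promoters of COX4I1 and EMC8 overlap head to head (chr16:85799445-85799744 on the plus strand and chr16:85799495-85799794 on the minus strand).

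Levels are log2 of the deposited intensities, averaged over the transcripts of a gene. A gene passed the filter on dim signals when its level reached 7.95, the median of all genes and arrays, on at least 1 array. Of the 85 genes, 77 passed, 75 of them on all 3 arrays. COX6B2 passed only through the ATRA array, and NDUFC2 passed on the ATRA+NIC and Control arrays but lay at 7.64 on the ATRA array. The other 8 were COX4I2, COX6A2, COX7A1, COX7B2, COX8C, COXFA4L2, DMAC2L and NDUFS1. The arrays had median transcript intensities between 297.9 and 302.3, and random probes lay at log2 4.20 to 4.29. With 1 array per group no test is possible, so every difference describes these arrays and has no error between cultures. The scatter that can be given is that between transcripts on the same arrays. Transcripts of the same gene had differences with a pooled SD of 0.31 for ATRA minus Control, 0.30 for ATRA+NIC minus ATRA and 0.24 for ATRA+NIC minus Control, on the log2 scale. This SD is not technical error alone, since transcripts of a gene can differ in fact and dim transcripts are included. Since the 3 comparisons are made from 3 arrays, each array is shared by a pair of them, and their values are given side by side only.

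**Figure D1:**
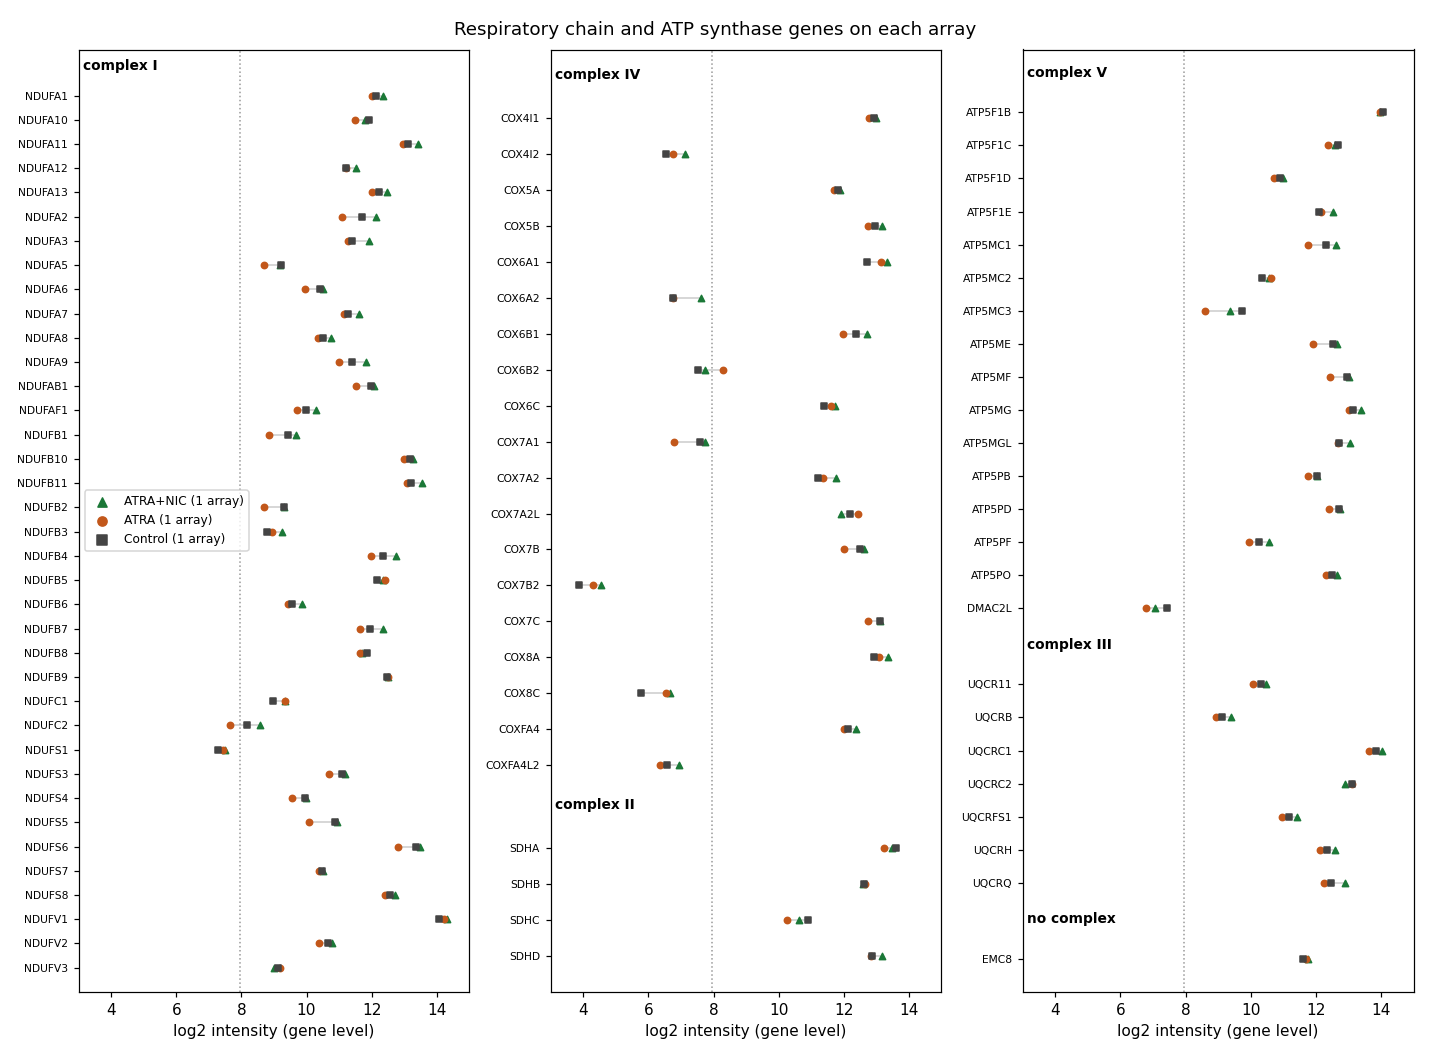
Log2 level of the genes (1 complex I gene is not shown) on the ATRA+NIC array (triangles), the ATRA array (circles) and the Control array (squares), by complex, with 1 array per group and no error bars. The dotted line is the filter at 7.95. Levels of different genes come from different probes and are not to be compared. For NDUFA2, NDUFS5 and NDUFB4 the circle lies left of both other symbols, and for COX6A1 it lies between them.

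The comparison of ATRA with Control asks how these genes differ in keratinocytes given the retinoid. Complex I, complex III and ATP synthase genes were mostly a little lower on the ATRA array, and complex IV genes were divided. On the ATRA array 64 of the 85 genes were lower and 21 higher than in Control. The median difference was −0.18 and the quartiles −0.39 and 0.00. Among the 77 that passed the filter 60 were lower and 17 higher, with a median of −0.19, where 54.4% of all 12467 genes passing were lower and 45.6% higher, with a median of −0.04. Differences of single genes were small. At least 2-fold lower was 1 gene, ATP5MC3, against a background of 2.06% of genes, and 0 were at least 2-fold higher, against 3.83%. At a 1.5-fold limit 9 of 85 were lower (7 of 77 passing, background 8.99%) and 2 of 85 higher (1 of 77 passing, background 9.90%). The share of lower genes past 1.5-fold was thus close to the background, while the centre of the distribution lay below it. Of the 77 genes, 28 lay under the lower quartile of all genes (−0.29), 5 above the upper quartile (0.23) and 44 between them.

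Setting ATRA+NIC against ATRA asks how the genes differ when nicotinamide accompanies the retinoid. Genes of all 5 complexes were mostly higher on the ATRA+NIC array, and the shift was larger than in the other comparisons. Of the 85 genes 76 were higher and 9 lower, with a median of 0.38 and quartiles of 0.21 and 0.57. Among the 77 passing, 68 were higher and 9 lower with a median of 0.39, where 55.8% of all genes passing were higher and 44.2% lower, with a median of 0.05. NDUFA2 was the 1 gene at least 2-fold higher, against a background of 1.35%, and 0 were at least 2-fold lower, against 3.74%. At 1.5-fold the picture differed from ATRA minus Control: 20 of 85 were higher (17 of 77 passing), where 7.88% of all genes were, and 0 were lower, where 9.47% were. The upper quartile of all genes was 0.30, and 51 of the 77 lay above it, 23 lay between the quartiles and 3 lay under the lower one of −0.22.

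Between ATRA+NIC and Control, cells given both agents are set against cells given neither. The level on the ATRA+NIC array was higher in 70 of the 85 genes and lower in 15, with a median of 0.21 and quartiles of 0.05 and 0.33. Among the 77 passing, 63 were higher and 14 lower with a median of 0.19, where 48.8% of all genes were higher and 51.2% lower, with a median of −0.01. No gene reached 2-fold, against backgrounds of 1.03% higher and 0.971% lower. At 1.5-fold 4 of 85 were higher (1 of 77 passing, COX6A1, background 3.96%) and 0 lower (background 3.87%). In the distribution of all genes, 39 of the 77 lay above the upper quartile of 0.18 and 4 under the lower quartile of −0.19. The spread among the 77 genes was narrower than among all genes in each comparison, with interquartile ranges of 0.36 against 0.52 for ATRA minus Control, 0.35 against 0.52 for ATRA+NIC minus ATRA, and 0.27 against 0.37 for ATRA+NIC minus Control.

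**Figure D2:**
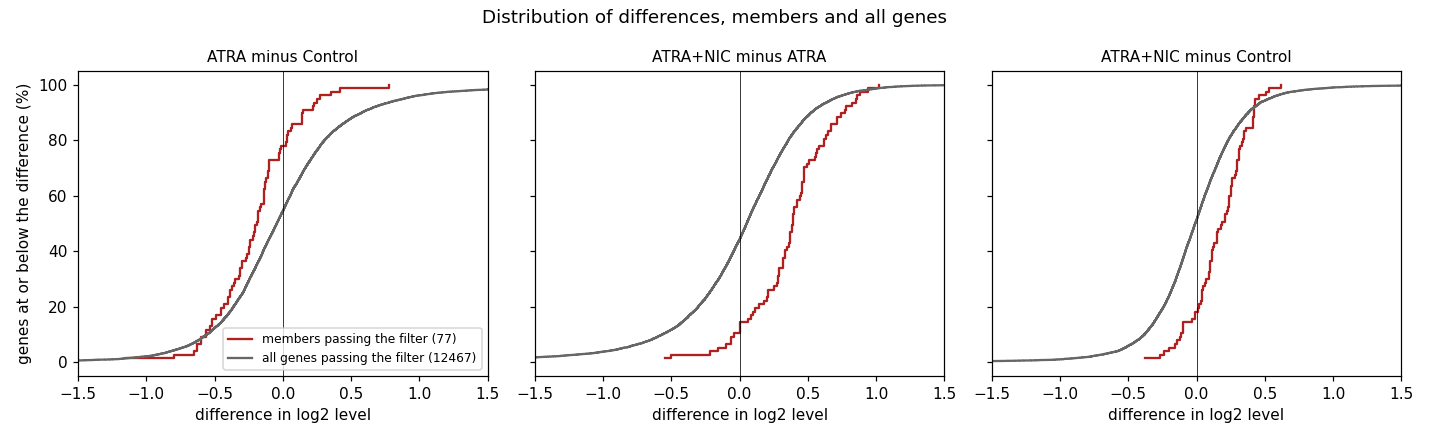
Percent of genes at or below each difference in log2 level (x axis), for the 77 members passing the filter and for all 12467 genes passing, in the 3 comparisons. The member curve lies left of the curve of all genes over most of its length in ATRA minus Control (medians −0.19 and −0.04) and right of it in ATRA+NIC minus ATRA (0.39 and 0.05) and ATRA+NIC minus Control (0.19 and −0.01).

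Many of these genes are bright, and 52 of the 77 fell in the 3 brightest of 10 equal bins of all genes passing the filter. The medians of all genes in these 10 bins ran from −0.07 to 0.02 for ATRA minus Control, from 0.01 to 0.07 for ATRA+NIC minus ATRA and from −0.07 to 0.02 for ATRA+NIC minus Control. The medians of the members lay outside these ranges in each comparison. Bright genes as a whole also had closer quartiles. With the filter raised to the 75th percentile, the quartiles of all 6503 genes were −0.27 and 0.21, −0.19 and 0.28, and −0.16 and 0.17, in the same order of comparisons. Those of the 64 members were −0.35 and −0.03, 0.21 and 0.50, and 0.06 and 0.31.

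Within complex I the core subunits, which carry the flavin, the iron-sulphur clusters and the quinone site, differed less than the accessory subunits around them. The 6 core genes passing the filter had medians of −0.12 for ATRA minus Control, 0.23 for ATRA+NIC minus ATRA and 0.11 for ATRA+NIC minus Control. The 30 accessory genes passing had medians of −0.21, 0.47 and 0.24 in the same order. This difference between core and accessory genes is a description of 3 arrays and was not tested. Over all 38 complex I genes the medians were −0.20, 0.45 and 0.22, with 31, 4 and 6 of the 38 lower.

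NDUFV1, which binds NADH and the flavin, had log2 levels of 14.30 with ATRA+NIC, 14.21 with ATRA and 14.06 in Control. It spanned 0.24 across the 3 arrays, no more than the pooled scatter between transcripts of a gene in each comparison. Its own 2 transcripts differed by 0.14 and 0.15 for ATRA minus Control. They differed by 0.17 and 0.02 for ATRA+NIC minus ATRA and by 0.31 and 0.17 for ATRA+NIC minus Control. NDUFS8 and NDUFS7, which hold iron-sulphur clusters near the quinone site, had 12.72 and 10.51 with ATRA+NIC, 12.41 and 10.37 with ATRA and 12.55 and 10.47 in Control. NDUFV2, an iron-sulphur subunit of the NADH-oxidising arm, was at 10.79 with ATRA+NIC, 10.37 with ATRA and 10.67 in Control, and NDUFS3, a subunit of the quinone-binding arm, at 11.18 with ATRA+NIC, 10.69 with ATRA and 11.08 in Control. Among the core genes NDUFS3 had the lowest difference for ATRA minus Control, −0.39, and the highest for ATRA+NIC minus ATRA, 0.49. NDUFS1, which holds iron-sulphur clusters of the NADH-oxidising arm, gave discordant signals. Its brightest transcript read 12.38 with ATRA+NIC, 12.59 with ATRA and 12.61 in Control, and the other 2 lay under an intensity of 50 on all 3 arrays. The gene level of NDUFS1, at 7.50 with ATRA+NIC, 7.44 with ATRA and 7.28 in Control, thus missed the filter.

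NDUFA2, an accessory subunit of the matrix arm (hg18 chromosome 5, 140005141 to 140007424), was at 12.12 with ATRA+NIC, 11.10 with ATRA and 11.70 in Control. It was 2.03-fold higher on the ATRA+NIC array than on the ATRA array, with differences of 0.92 and 1.13 in its 2 transcripts. NDUFS5, an accessory subunit of the membrane arm (hg18 chromosome 1, 39264592 to 39272874), was at 10.95 with ATRA+NIC, 10.07 with ATRA and 10.86 in Control. For this gene the ATRA array stood apart and the other arrays lay 0.09 from each other, but a single transcript read it. NDUFC2, another membrane arm subunit, had 8.58 with ATRA+NIC, 7.64 with ATRA and 8.16 in Control, and NDUFB2 had 9.30 with ATRA+NIC, 8.68 with ATRA and 9.31 in Control. The 2 transcripts of NDUFB2 were 0.12 and 1.15 lower in ATRA minus Control, a gap wider than the difference itself.

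NDUFB4 and NDUFA9, whose promoters are printed above, had the same order of arrays as NDUFA2. NDUFB4, with the palindrome at 3 places, had 12.76 with ATRA+NIC, 11.98 with ATRA and 12.35 in Control. Its 3 transcripts ran from 0.74 to 0.81 in ATRA+NIC minus ATRA and from −0.44 to −0.25 in ATRA minus Control, although RefSeq names 12 pseudogenes of NDUFB4 and its probes may bind their RNA. NDUFA9, an accessory subunit at the junction of the arms, had 11.82 with ATRA+NIC, 11.00 with ATRA and 11.40 in Control. Genes that are higher with both agents than without either included NDUFA3, at 11.93 with ATRA+NIC, 11.28 with ATRA and 11.41 in Control, and NDUFB3, at 9.26 with ATRA+NIC, 8.93 with ATRA and 8.80 in Control.

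Several complex I genes did not follow. NDUFC1 was at 9.33 on both the ATRA+NIC and ATRA arrays and at 8.98 on the Control array, and its 3 transcripts differed in sign in ATRA+NIC minus ATRA, from −1.01 to 0.54. NDUFB5 had 12.36 with ATRA+NIC, 12.40 with ATRA and 12.17 in Control, and NDUFV3, an accessory flavoprotein subunit, 9.01 with ATRA+NIC, 9.17 with ATRA and 9.12 in Control. NDUFB9 lay at 12.51 with ATRA+NIC, 12.51 with ATRA and 12.48 in Control, a span of 0.04. NDUFB8 and NDUFA10 were lower on both treated arrays than in Control. NDUFB8 had 11.71 with ATRA+NIC, 11.65 with ATRA and 11.86 in Control, and NDUFA10 had 11.79 with ATRA+NIC, 11.50 with ATRA and 11.93 in Control. Of the genes not yet given, NDUFB1, NDUFS6, NDUFA5, NDUFAB1 (the mitochondrial acyl carrier protein gene) and NDUFA6 had differences of −0.60 to −0.45 for ATRA minus Control and of 0.51 to 0.85 for ATRA+NIC minus ATRA. NDUFS4, NDUFB7, NDUFAF1, NDUFA13 (also called GRIM-19), NDUFB10, NDUFA11, NDUFA8, NDUFB6, NDUFA1, NDUFB11, NDUFA7 and NDUFA12 had −0.39 to −0.01 and 0.29 to 0.71.

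**Figure D3:**
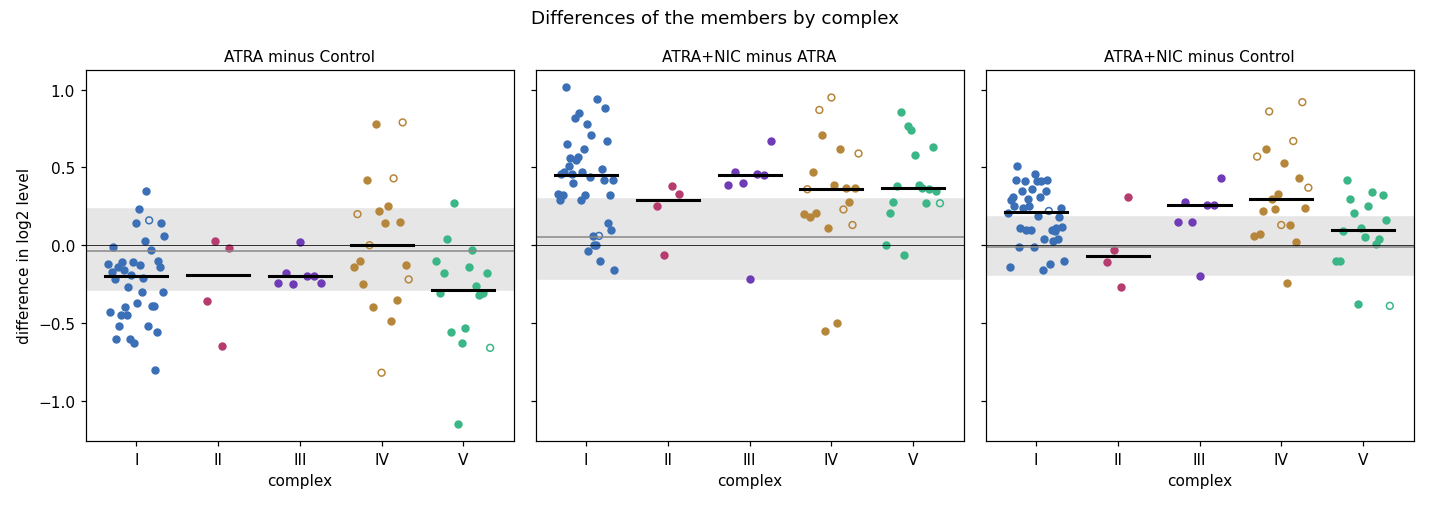
Difference in log2 level of each gene (1 point per gene, EMC8 not shown) by complex, in the 3 comparisons. Open points did not pass the filter, black bars are medians over all measured genes of a complex, the grey line is the median of all 12467 genes passing and the grey band their quartiles. In ATRA+NIC minus ATRA the bars of complexes I, III, IV and V (0.45, 0.45, 0.36 and 0.37) lie above the band, and complex II (0.29) lies inside it. Over the 13 complex IV genes that passed the filter, as the genes of the band did, the median is 0.28, which lies inside the band. In ATRA minus Control the bar of complex IV lies at 0.00.

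Complex II oxidises succinate and is also an enzyme of the citric acid cycle. SDHA, the flavoprotein, had 13.49 with ATRA+NIC, 13.24 with ATRA and 13.59 in Control, and SDHB, the iron-sulphur protein, had 12.59 with ATRA+NIC, 12.65 with ATRA and 12.62 in Control. The membrane anchor gene SDHD was at 13.18 with ATRA+NIC, 12.85 with ATRA and 12.86 in Control. So SDHA was lower and SDHD equal, within 0.02, on the ATRA array beside Control, while SDHB spanned 0.06 over the 3 arrays. SDHC, the other membrane anchor gene, had 10.63 with ATRA+NIC, 10.25 with ATRA and 10.90 in Control, but its transcripts were discordant. The brightest SDHC transcript, at 13.29 with ATRA+NIC, 13.26 with ATRA and 13.44 in Control, differed by 0.18 at most, while the dimmest had 7.62 with ATRA+NIC, 6.43 with ATRA and 7.93 in Control. The 4 genes had medians of −0.19 for ATRA minus Control, 0.29 for ATRA+NIC minus ATRA and −0.07 for ATRA+NIC minus Control.

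In complex III, 6 of 7 genes differed in the same direction in each comparison. Their differences lay between −0.25 and −0.18 for ATRA minus Control. The ranges were 0.39 to 0.67 for ATRA+NIC minus ATRA and 0.15 to 0.43 for ATRA+NIC minus Control. UQCRQ, a small subunit, had the largest of these for ATRA+NIC minus ATRA, with 12.91 with ATRA+NIC, 12.24 with ATRA and 12.48 in Control. UQCRFS1, the Rieske iron-sulphur protein that takes electrons from ubiquinol, was at 11.43 with ATRA+NIC, 10.97 with ATRA and 11.17 in Control. The core protein gene UQCRC1 had 14.02 with ATRA+NIC, 13.62 with ATRA and 13.86 in Control, the hinge protein gene UQCRH 12.58 with ATRA+NIC, 12.13 with ATRA and 12.33 in Control, and the small subunit genes UQCRB 9.39 with ATRA+NIC, 8.93 with ATRA and 9.11 in Control and UQCR11 10.46 with ATRA+NIC, 10.07 with ATRA and 10.31 in Control. UQCRC2, the partner of UQCRC1 as a core protein, was the exception, at 12.90 with ATRA+NIC, 13.12 with ATRA and 13.10 in Control. Its difference of −0.22 for ATRA+NIC minus ATRA stood beside 0.40 for UQCRC1.

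Complex IV was divided for ATRA minus Control, with 10 of 19 genes lower and a median of 0.00. Of the 19 genes, 17 were higher for ATRA+NIC minus ATRA, with a median of 0.36, and for ATRA+NIC minus Control 18 of 19, with a median of 0.30. Over the 13 genes that passed the filter these medians were −0.10, 0.28 and 0.23. COX7B had 12.63 with ATRA+NIC, 12.01 with ATRA and 12.50 in Control, and COX6B1, which faces the intermembrane space, had 12.70 with ATRA+NIC, 11.99 with ATRA and 12.39 in Control. COX7C (13.12 with ATRA+NIC, 12.75 with ATRA and 13.10 in Control) and COX5B (13.19 with ATRA+NIC, 12.73 with ATRA and 12.97 in Control) had the same order. These 4 genes were lower on the ATRA array than on both other arrays.

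A second set of complex IV genes was higher on both treated arrays than on the Control array. COX6A1, the ubiquitous isoform of subunit 6A (hg18 chromosome 12, 119360286 to 119362915), had 13.34 with ATRA+NIC, 13.13 with ATRA and 12.71 in Control. It was 1.54-fold higher with ATRA+NIC than in Control and was read by 1 transcript. RefSeq names 6 pseudogenes of COX6A1, and its probes may bind their RNA. COX7A2 had 11.75 with ATRA+NIC, 11.36 with ATRA and 11.22 in Control, COX8A 13.36 with ATRA+NIC, 13.08 with ATRA and 12.93 in Control, and COX6C 11.73 with ATRA+NIC, 11.62 with ATRA and 11.40 in Control. RefSeq names 18 pseudogenes of COX6C, the most of any gene here, so its signal is uncertain. COX4I1 and COX5A, early-assembling subunits, spanned 0.20 and 0.18 over the 3 arrays, and COXFA4 spanned 0.37. The gene that shares its promoter region with COX4I1, EMC8, had 11.76 with ATRA+NIC, 11.69 with ATRA and 11.62 in Control.

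Other complex IV genes are isoforms known from particular tissues, and most were dim in these cells. The heart and muscle isoform genes COX6A2 and COX7A1, the lung isoform gene COX4I2, and the second isoform genes COX7B2 and COX8C did not pass the filter, nor did COXFA4L2. COX7A1 had 7.73 with ATRA+NIC, 6.78 with ATRA and 7.60 in Control, and COX6A2 had 7.62 with ATRA+NIC, 6.76 with ATRA and 6.76 in Control. Both were read by 1 transcript, and on the ATRA array both lay under the filter by more than 1 on the log2 scale. COX4I2 was at 7.12 with ATRA+NIC, 6.76 with ATRA and 6.55 in Control, COXFA4L2 at 6.94 with ATRA+NIC, 6.35 with ATRA and 6.57 in Control, and COX8C at 6.67 with ATRA+NIC, 6.54 with ATRA and 5.76 in Control. COX7B2 lay at 4.53 with ATRA+NIC, 4.29 with ATRA and 3.86 in Control, near the random probes. COX6B2, the testis isoform of subunit 6B, had 7.74 with ATRA+NIC, 8.29 with ATRA and 7.51 in Control, the highest level on the ATRA array, and 1 of its 4 transcripts went the other way. COX7A2L, which encodes a factor that joins complexes III and IV, was at 11.93 with ATRA+NIC, 12.43 with ATRA and 12.18 in Control, and with COX6B2 it made up the complex IV genes lower with ATRA+NIC than with ATRA.

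ATP synthase genes had the lowest median of the complexes for ATRA minus Control, −0.28, with 14 of 16 genes lower. For ATRA+NIC minus ATRA 15 of 16 were higher with a median of 0.37, and for ATRA+NIC minus Control 12 of 16 were higher with a median of 0.10. ATP5F1B, the catalytic beta subunit, had 13.97 with ATRA+NIC, 13.97 with ATRA and 14.07 in Control. ATP5F1C, the gamma subunit of the rotating stalk, had 12.58 with ATRA+NIC, 12.37 with ATRA and 12.68 in Control, ATP5F1D, the delta subunit, 10.99 with ATRA+NIC, 10.72 with ATRA and 10.90 in Control, and ATP5F1E, the epsilon subunit, 12.53 with ATRA+NIC, 12.15 with ATRA and 12.11 in Control. The gene of the alpha subunit was not analysed here.

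The membrane subunits e and f differed more. ATP5ME, subunit e, had 12.64 with ATRA+NIC, 11.90 with ATRA and 12.53 in Control, and ATP5MF, subunit f, had 13.01 with ATRA+NIC, 12.43 with ATRA and 12.96 in Control over 6 transcripts. For both genes the ATRA array was the low one, and the other arrays lay 0.11 and 0.05 apart. ATP5MG, subunit g, was at 13.40 with ATRA+NIC, 13.01 with ATRA and 13.15 in Control, and its relative ATP5MGL at 13.05 with ATRA+NIC, 12.68 with ATRA and 12.71 in Control. The peripheral stalk genes ATP5PB, ATP5PD, ATP5PF and ATP5PO differed by −0.32 to −0.18 for ATRA minus Control and by 0.27 to 0.63 for ATRA+NIC minus ATRA. DMAC2L, the dim coupling factor gene, had 7.05 with ATRA+NIC, 6.79 with ATRA and 7.44 in Control.

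ATP5MC1, ATP5MC2 and ATP5MC3 encode the same mature c subunit, which forms the rotor ring in the membrane, from precursors with different import sequences. Their differences were unlike each other. ATP5MC1 (hg18 chromosome 17, 44325146 to 44328232) had 12.62 with ATRA+NIC, 11.76 with ATRA and 12.32 in Control, and its 2 transcripts lay between 0.80 and 0.92 for ATRA+NIC minus ATRA and between −0.58 and −0.54 for ATRA minus Control. ATP5MC2 (hg18 chromosome 12, 52345215 to 52356696) had 10.57 with ATRA+NIC, 10.63 with ATRA and 10.36 in Control, and all 3 of its transcripts were higher with ATRA than in Control, by 0.09 to 0.41. For ATP5MC1 the ATRA array was the low one. The transcripts of ATP5MC2 differed by −0.17 to 0.07 for ATRA+NIC minus ATRA, in both directions. ATP5MC3 (hg18 chromosome 2, 175750852 to 175754699) had 9.35 with ATRA+NIC, 8.59 with ATRA and 9.73 in Control, a difference of −1.15 for ATRA minus Control. This value rests on its dim transcript, which read 5.37 with ATRA+NIC, 4.29 with ATRA and 6.21 in Control, and so lay under an intensity of 50 (log2 5.64) on both treated arrays. The bright ATP5MC3 transcript read 13.34 with ATRA+NIC, 12.89 with ATRA and 13.26 in Control, with differences of −0.37 for ATRA minus Control, 0.45 for ATRA+NIC minus ATRA and 0.08 for ATRA+NIC minus Control. With values under 50 set to 50, the gene level differed by −0.47, 0.23 and −0.24 in the same order.

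Transcripts of the same gene, which are read by separate probes on the same array, mostly went the same way. Of all 177 transcripts 130 were lower for ATRA minus Control, 158 were higher for ATRA+NIC minus ATRA and 137 were higher for ATRA+NIC minus Control, with medians of −0.21, 0.38 and 0.18, beside −0.02, 0.03 and 0.00 over all transcripts on the arrays. Among the 52 genes passing the filter with more than 1 transcript, every transcript was lower in 34 for ATRA minus Control, where 35.6% of 7074 such genes were, and every transcript was higher in 4, where 29.3% were. Every transcript was higher for ATRA+NIC minus ATRA in 44 (background 36.6%) and lower in 1 (background 30.2%). The same counts for ATRA+NIC minus Control were 35 higher (background 30.0%) and 4 lower (background 32.2%). Probes of 1 array share the RNA and the hybridisation, so their agreement says nothing about the spread between cultures.

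Pseudogene copies can share sequence with a probe, and 49 of the 85 have at least 1 pseudogene named after them in RefSeq. Among these were NDUFS5 and COX6B1 with 7 each and ATP5MC1 with 8. The 29 passing genes without a named pseudogene had medians of −0.17 for ATRA minus Control, 0.39 for ATRA+NIC minus ATRA and 0.18 for ATRA+NIC minus Control. These medians lay within 0.02 of those over the 77 genes.

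Medians of genes with and without each promoter motif are given as a description, and their difference was not tested. The 14 passing genes with an NRF1 palindrome had medians of −0.22 for ATRA minus Control, 0.40 for ATRA+NIC minus ATRA and 0.25 for ATRA+NIC minus Control, beside −0.20, 0.38 and 0.21 in the 50 passing genes whose promoter lacks it. The 19 genes with an ETS core had −0.22, 0.39 and 0.25, beside −0.19, 0.39 and 0.18 in the 45 without. The 14 genes with a YY1 motif had −0.28, 0.44 and 0.14, beside −0.18, 0.38 and 0.24 in the 50 without. None of the genes of the factors themselves reached 2-fold. NRF1 was at 9.54 with ATRA+NIC, 9.65 with ATRA and 9.79 in Control. GABPA, at 6.19 with ATRA+NIC, 5.45 with ATRA and 6.23 in Control, was under the filter, and its partner GABPB1 had 9.51 with ATRA+NIC, 10.07 with ATRA and 9.80 in Control. YY1 had 11.63 with ATRA+NIC, 11.88 with ATRA and 11.53 in Control.

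Other gene lists of the mitochondrion were set beside the respiratory chain, over all their measured genes. The 37 assembly factor genes had medians of −0.20 for ATRA minus Control, 0.19 for ATRA+NIC minus ATRA and 0.04 for ATRA+NIC minus Control. The 78 genes of mitochondrial ribosomal proteins, which translate the mitochondrially encoded subunits, had −0.21, 0.22 and 0.06, and the 17 citric acid cycle genes −0.09, 0.08 and −0.07. For ATRA minus Control the first 2 of these lists had medians close to the −0.18 of the respiratory chain genes, and the citric acid cycle lay nearer 0. For ATRA+NIC minus ATRA each of them lay below the 0.38 of the respiratory chain genes, and for ATRA+NIC minus Control each lay below their 0.21. The 39 import and inner membrane genes had −0.09, 0.09 and −0.03, and the 16 regulators of mitochondrial gene expression −0.06, 0.03 and −0.11. Genes of the cytosolic ribosome, a list of 86 added after values had been seen, had 0.06, 0.05 and 0.13. The differences between lists were not tested. CYC1 and CYCS, which encode cytochromes c1 and c, were at 13.88 and 11.96 with ATRA+NIC, 13.70 and 11.79 with ATRA and 13.77 and 11.90 in Control. The choice by name takes neither gene, so the complex III genes described above do not include cytochrome c1. The mitochondrially encoded subunits were not analysed here.

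**Figure D4:**
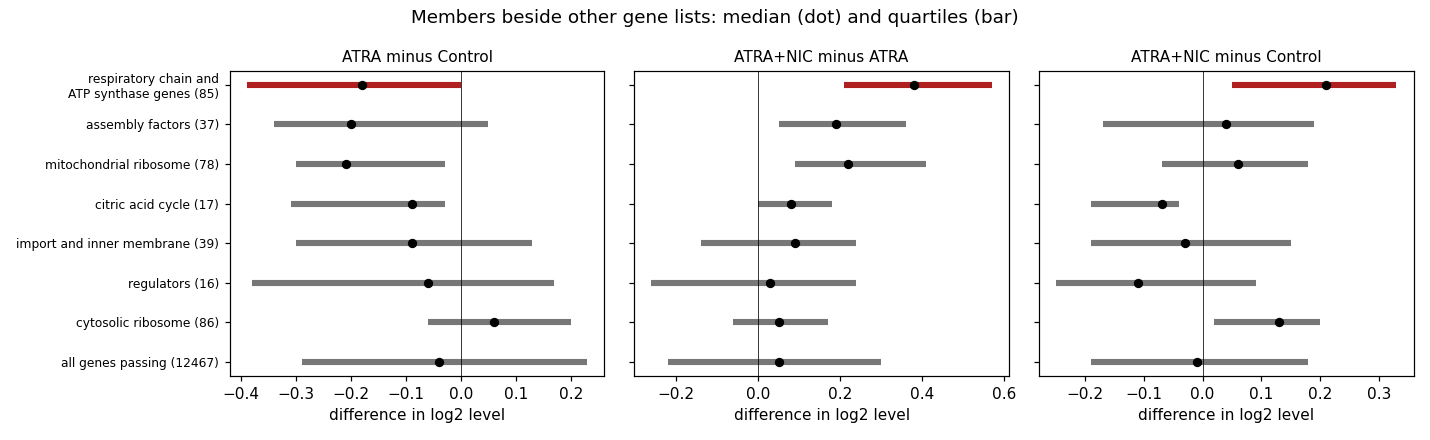
Median (dot) and quartiles (bar) of the difference in log2 level in the 3 comparisons, for the 85 respiratory chain and ATP synthase genes, for the other lists over all their measured genes (number in brackets) and for all 12467 genes passing the filter. In ATRA+NIC minus ATRA the 85 genes have the highest median (0.38), above the mitochondrial ribosome (0.22) and assembly factors (0.19). In ATRA minus Control their median (−0.18) is close to that of the mitochondrial ribosome (−0.21).

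Counted per list, 25 of the 37 assembly factor genes were lower for ATRA minus Control, 6 for ATRA+NIC minus ATRA and 16 for ATRA+NIC minus Control. For the 78 mitochondrial ribosomal genes these counts were 61, 15 and 35, for the 17 citric acid cycle genes 14, 3 and 13, and for the 39 import and inner membrane genes 21, 17 and 22. Of the 16 regulator genes 8, 7 and 11 were lower.

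Keratinocyte markers were present on all arrays, and 9 of 9 passed the filter, with levels between 8.54 and 15.17. Their summed intensity was 79270 with ATRA+NIC, 85425 with ATRA and 119057 in Control. Of the markers of other cell types, 3 of 5 for leukocytes, 1 of 5 each for fibroblasts, endothelium and melanocytes, and 3 of 5 for muscle passed the filter. Their summed intensities on the ATRA+NIC, ATRA and Control arrays were 2781, 4426 and 2272 for leukocytes, 517.0, 492.7 and 494.9 for fibroblasts, 3370, 2649 and 329.6 for endothelium, 559.3, 457.3 and 337.8 for melanocytes and 23240, 27568 and 24511 for muscle. On each array most of the muscle sum came from 1 marker, at log2 14.34 with ATRA+NIC, 14.62 with ATRA and 14.37 in Control. The same held for the leukocyte sum, with the highest marker at 11.19, 11.73 and 10.79 in the same order. The endothelial sum was carried by CDH5, which encodes a cadherin of endothelial junctions, at 11.67 with ATRA+NIC, 11.31 with ATRA and 7.70 in Control. Of the 5 endothelial markers, those under the filter included, 3 were lower for ATRA minus Control, with a median of −0.03. The part of these markers in the differences of the respiratory chain genes was not tested. All 3 arrays are of the same keratinocyte line, so the sums are no measure of other cell types in the cultures. In bulk RNA, fewer cells with a marker RNA and less of it per cell cannot be told apart.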

How the data were processed

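Total RNA was labelled with Cy3 and hybridised to 3 NimbleGen arrays, per the labels' protocols. The authors deposited a linear intensity for each of 45033 transcripts, summarised by RMA (background correction, normalization across arrays, summary of 3 probes) per the file headers. The RMA software is not named in those sources. A deposited standard error column has no stated unit and was not used. The series value table held the same intensities for the 31275 transcripts at or above 50 on all arrays.

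Intensities were taken to log2 and averaged per gene, with symbols from a RefSeq table of GRCh38.p14 by Entrez number. Coordinates of genes are those of the files (hg18). Genes reaching the median level of 7.95 on at least 1 array passed the filter (12467 of 23595). A difference of at least 2-fold was the rule of size. Groups came from the labels, and each held 1 array, so there is no test, and the number of arrays limits the precision. Python 3.11.15, pandas 2.3.3, NumPy 2.4.6 and statsmodels 0.14.6 were used. The 2-fold rule and the median were tested on simulated gene levels, with planted differences far larger than the medians described here. The other steps were not tested in this way.

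Members described with values by rule were those at least 2-fold different, and the 2 highest and 2 lowest differences of each complex and comparison among genes passing the filter. They also included the gene with the highest level in each complex on the Control array, tissue isoforms, c subunit genes, core subunits, and genes whose transcripts lay more than 2 apart. Further members were given with values outside this rule and with their values known, among them NDUFB4, NDUFA9, NDUFB9, COX5B and COX8A. Of genes that are not members, at most 2 per list and comparison were named. CDH5 was named among the cell type markers, which are otherwise given as lists. The genes of the 3 promoter-binding factors were named too, chosen after their values were seen. The values of 1 core subunit gene of complex I are not reported here; it is counted in the medians and counts. Members and lists were chosen with earlier results of these data known. Alternatives covered the filter, the summary over transcripts, an added offset of 100, a floor of 50, the value table, centring and the size limit. They also covered subunit genes only, RefSeq NM transcripts only and genes without a named pseudogene.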

Additional observations from a re-analysis of the deposited data

How the results depend on the processing

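Over 12 alternatives the median difference of the genes stayed between −0.21 and −0.14 for ATRA minus Control, between 0.32 and 0.39 for ATRA+NIC minus ATRA and between 0.16 and 0.21 for ATRA+NIC minus Control. Among differences of single genes, taken over comparisons and alternatives together, 833 kept their value within the limits set, 46 moved and 0 changed sign after having been called. The same gene is counted many times here, so these are not numbers of genes. In the main analysis 1 gene was called at 2-fold for ATRA minus Control, 1 for ATRA+NIC minus ATRA and 0 for ATRA+NIC minus Control. A change of sign after a call could thus hardly occur, and its count of 0 says little. The counts past a fixed size depended on the processing. For ATRA minus Control the 1 gene at 2-fold, ATP5MC3, became 0 with the 75th percentile filter, 100 added before log2, values under 50 set to 50, or the series value table, and 8 genes were past 1.5-fold. With the brightest transcript of each gene the count was also 1, but ATP5MC3 was at −0.37 and COX6B2 at 1.24. For ATRA+NIC minus ATRA the 1 gene, NDUFA2, became 0 with the brightest transcript, 100 added or centring on the median of all genes, and 17 were past 1.5-fold. For ATRA+NIC minus Control the count of 0 became 1 at 1.5-fold. Some alternatives were not planned, namely centring on a smooth curve of level and the use of RefSeq NM transcripts only. Another, added after seeing the data, left out genes that have a named pseudogene. Without them 22, 5 and 5 of 29 genes were lower in the 3 comparisons, or 75.9%, 17.2% and 17.2%. With them 60, 9 and 14 of 77 were lower, or 77.9%, 11.7% and 18.2%.

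Over all genes, the numbers at least 2-fold higher and lower were 477 and 257 for ATRA minus Control. They were 997 and 759 without the filter and 234 and 74 with the 75th percentile filter. Lower genes numbered 130 with 100 added and 125 with the value table. For ATRA+NIC minus ATRA, 168 were higher and 466 lower, 728 and 973 without the filter, 48 and 221 with the 75th percentile filter and 89 and 310 with the value table, and 75 were higher with 100 added. Between ATRA+NIC and Control, 128 were higher and 121 lower, 548 and 491 without the filter, 44 and 48 with the 75th percentile filter, 74 and 69 with 100 added and 72 and 75 with the value table. The genes counted numbered 12467 in the main analysis, 23595 without the filter, 6503 with the 75th percentile filter and 9054 with the value table. The share of genes past 2-fold was not constant over these either. The cause was not tested for any of the alternatives.

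No paired analysis was possible because each group held 1 array, and leaving out arrays was not possible for the same reason. Signal over background limits the dim genes: 8 of the 85 missed the filter and random probes lay at log2 4.20 to 4.29.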

Other observations

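Among genes that work beside the respiratory chain, a few stood out from their lists. UCP2, which encodes a carrier of the inner membrane, had log2 levels of 8.10 with ATRA+NIC, 9.40 with ATRA and 8.42 in Control, and was 2.46-fold lower with ATRA+NIC than with ATRA. TIMM21, an import gene whose product also takes part in respiratory chain assembly, had 9.94 with ATRA+NIC, 9.11 with ATRA and 10.06 in Control, lowest on the ATRA array, where UCP2 was highest, and TOMM40L had 8.23 with ATRA+NIC, 7.10 with ATRA and 7.78 in Control, 2.18-fold higher with ATRA+NIC than with ATRA. COX14, an assembly factor gene of complex IV, was 1.92-fold higher with ATRA+NIC than with ATRA, at 11.74 and 10.80, and stood at 11.07 in Control. COA5, another complex IV assembly gene, had 7.87 with ATRA+NIC, 7.11 with ATRA and 8.15 in Control, and was 2.06-fold lower with ATRA than in Control. These genes were each read by 1 transcript, except TIMM21 with 2. TOMM40L reached the filter on dim signals only on the ATRA+NIC array, and COA5 only on the Control array. The fold values given for TOMM40L and COA5 thus each set a level above the filter against a level under it.

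In the mitochondrial ribosome list MRPL18 was among the 17 of 78 genes higher with ATRA than in Control, with 12.15 with ATRA+NIC, 12.89 with ATRA and 12.27 in Control, while MRPL13 had 11.01 with ATRA+NIC, 10.21 with ATRA and 10.66 in Control. DLD, which encodes a subunit shared by the pyruvate and oxoglutarate dehydrogenase complexes, was at 9.89 with ATRA+NIC, 9.50 with ATRA and 10.18 in Control, and DLAT, of the pyruvate dehydrogenase complex, at 12.02 with ATRA+NIC, 11.81 with ATRA and 12.27 in Control. CS, the citrate synthase gene, had 13.59 with ATRA+NIC, 13.51 with ATRA and 13.88 in Control, lower on both treated arrays than in Control. PPARGC1A, the coactivator gene known for driving mitochondrial biogenesis, was dim at 5.59 with ATRA+NIC, 5.19 with ATRA and 6.16 in Control, under the filter on all 3 arrays, and ESRRA, which encodes a nuclear receptor that works with it, had 11.44 with ATRA+NIC, 11.44 with ATRA and 11.01 in Control.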
